A study of Homo sapiens with 30 samples.

Results

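Keratins 5, 14, 15, 17, 6A, 6B, 6C and 16, the keratins of the basal layer and of activated (wounded or hyperproliferative) stratified epithelium, were measured in RNA from UMUC1 cells, a human bladder cancer line in established use. The 8 genes were taken by symbol, and each had a row in both deposited count tables, which held 58288 and 20073 genes and 58953 genes between them. All cells had lost UTX function by mutation of KDM6A, the gene of this histone H3K27 demethylase, so the controls were UTX-deficient cells and not normal urothelium. The first experiment had 6 groups: cells stably carrying the vector pSIN-puro with wild type UTX (UTX), with UTX changed by H1146A and E1148A at its catalytic site (HEAA) or empty (EV), each in sphere medium and in full medium. The sphere medium held no serum but B27 without vitamin A and 20 ng/ml each of EGF and FGF2, in MEM, and full medium was MEM with 10% fetal bovine serum. The second experiment had 4 groups, all in full medium: cells carrying pBabe-puro FGFR3 with the S249C change or wild type FGFR3, each with pCDH-blasticidin UTX or its empty vector (EV). RNA was taken on day 3, with 3 libraries in each of the 10 groups. The labels do not say whether the lines were clones or pools, or whether the 3 libraries of a group were grown apart. The p-values therefore rest on the spread of these libraries alone, which may be technical. By its title the study asked how UTX loss and FGFR3 activation act on differentiation genes in bladder cancer.

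Keratins form intermediate filaments as pairs of a type I and a type II chain. KRT5 (type II) pairs with KRT14 (type I) in basal cells of stratified epithelia, and KRT15 is a further type I chain of basal cells. KRT6A, KRT6B and KRT6C (type II) with KRT16 and KRT17 (type I) are low in resting epidermis and appear in wounds, psoriasis and squamous tumours. In the bladder KRT5 marks basal urothelial cells, KRT14 a subset of them, and in bladder tumours high KRT5, KRT14, KRT6A and KRT16 go with the basal and squamous subtype.

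The type II members lie on the minus strand of chromosome 12 (GENCODE release 29, GRCh38), each with 9 exons: KRT6B (ENSG00000185479) at chr12:52446651-52452126, KRT6C (ENSG00000170465) at chr12:52468516-52473785, KRT6A (ENSG00000205420) at chr12:52487174-52493257 and KRT5 (ENSG00000186081) at chr12:52514575-52520687. The type I members lie on the minus strand of chromosome 17, each with 8 exons: KRT15 (ENSG00000171346) at chr17:41513743-41522529, KRT14 (ENSG00000186847) at chr17:41582279-41586921, KRT16 (ENSG00000186832) at chr17:41609778-41615899 and KRT17 (ENSG00000128422) at chr17:41619441-41624842. Some of these genes are close copies, which bears on how far their counts can be kept apart. The coding sequences of KRT6A, KRT6B and KRT6C, all 1692 bases long, differ from one another at 51 positions and are 97.52% to 98.52% identical. The densest stretch of differences, coding bases 664 to 723, is shown for the 3 genes with the 9 differing bases in capitals, read from the GENCODE transcripts; on GRCh38 it lies at chr12:52491554-52491613 for KRT6A, chr12:52450438-52450497 for KRT6B and chr12:52472098-52472157 for KRT6C, all on the minus strand.
KRT6A: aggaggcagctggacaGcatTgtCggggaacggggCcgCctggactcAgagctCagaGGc
KRT6B: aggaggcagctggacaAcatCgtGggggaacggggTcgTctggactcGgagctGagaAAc
KRT6C: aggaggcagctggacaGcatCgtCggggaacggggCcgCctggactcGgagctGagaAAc
Of all stretches of 31 bases in each gene's principal transcript, 47.3% in KRT6A, 41.7% in KRT6B and 38.3% in KRT6C occur in no other gene. The same share was 53.9% for KRT14, 60.5% for KRT16 and 62.3% for KRT17, where pseudogenes share part of the rest, against 92.8% for KRT5 and 98.3% for KRT15. KRT6B and KRT6C values, and KRT16 values at low level, are therefore uncertain where KRT6A or the pseudogenes hold far more reads.

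The KRT5 promoter is shown because KRT5 had the widest difference in CPM between UTX and EV cells among the members, in both media. The stretch is the RefSeq sequence (GRCh38.p14, chr12:52520345-52520644, minus strand) of 250 bases before and 50 bases after the start, and KRT5 was the only member with an entry in the promoter table used.
KRT5 promoter: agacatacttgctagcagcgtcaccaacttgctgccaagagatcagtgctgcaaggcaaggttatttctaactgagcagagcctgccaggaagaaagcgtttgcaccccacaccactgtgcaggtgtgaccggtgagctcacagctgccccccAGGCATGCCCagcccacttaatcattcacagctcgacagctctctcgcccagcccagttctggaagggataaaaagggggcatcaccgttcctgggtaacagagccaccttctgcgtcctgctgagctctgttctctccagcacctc
The capitals mark the only match, beginning 97 bases before the start, to the p53 family decamer, named for the family to which TP63 belongs. It was searched for as a single decamer. A search on both strands found this decamer in 6.63% of 35116 promoters of the same length and the E-box CANNTG, with 2 matches here, in 68.7%. The AP-1 site TGANTCA, the AP-2 site GCCNNNGGC, the GC box GGGCGG and TATAAA are not among these letters and occur in 7.71%, 23.2%, 45.0% and 11.5% of promoters. A match is a description of letters and not a binding site.

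Total counts per library were 23749352 to 40111234 in experiment 1 and 21672408 to 28290664 in experiment 2. KDM6A, the gene supplied on the vectors, was at 568 to 957 CPM (counts scaled to library size by edgeR) in UTX and HEAA libraries of both experiments and at 7.71 to 17.9 CPM in EV libraries. HEAA libraries held more of it than UTX libraries, at 687 to 702 against 568 to 593 CPM in full medium and 926 to 957 against 849 to 878 CPM in sphere medium. In UTX over HEAA the catalytic change and the amount of KDM6A RNA therefore cannot be told apart. Libraries of a group differed by more than counting noise, with a chi-square per gene between replicates of 2.03 to 11.84, and 3 libraries stood apart from both other replicates. For UTX S249C replicate 3 it was 11.58 and 9.99, against 2.03 between the other two, for EV S249C replicate 1 it was 11.1 and 11.3, against 3.91, and for EV sphere replicate 2 it was 11.84 and 11.68, against 5.64. UTX S249C replicate 3 also held less KDM6A (700 CPM) than replicates 1 (941 CPM) and 2 (946 CPM). With wild type FGFR3, UTX replicate 3 was likewise lower (739 CPM) than replicates 1 (863 CPM) and 2 (869 CPM). In the second experiment FGFR3 averaged 2588 ± 44.3 CPM in UTX and 2322 ± 110 CPM in EV cells with S249C, against 1243 ± 47.4 CPM in UTX and 1301 ± 74.9 CPM in EV cells with wild type FGFR3 (SD, n = 3 each), so the S249C groups also carried more FGFR3 RNA. All 10 epithelial and urothelial markers were detected and summed to 4721 to 7046 CPM per library. Endothelial markers summed to 1.24 to 4.35 CPM and leukocyte markers to 0.286 to 3.27 CPM, with up to 2 of the 4 leukocyte markers at 0 in a group. Fibroblast markers, of which 1 or 2 of 5 averaged at least 1 CPM, summed to 12.1 to 23.4 CPM in sphere medium and 39.3 to 56.6 CPM in full medium in the first experiment, and the part of this in the results was not tested. In such bulk samples fewer cells of a type and less RNA per cell cannot be told apart.

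**Figure D1:**
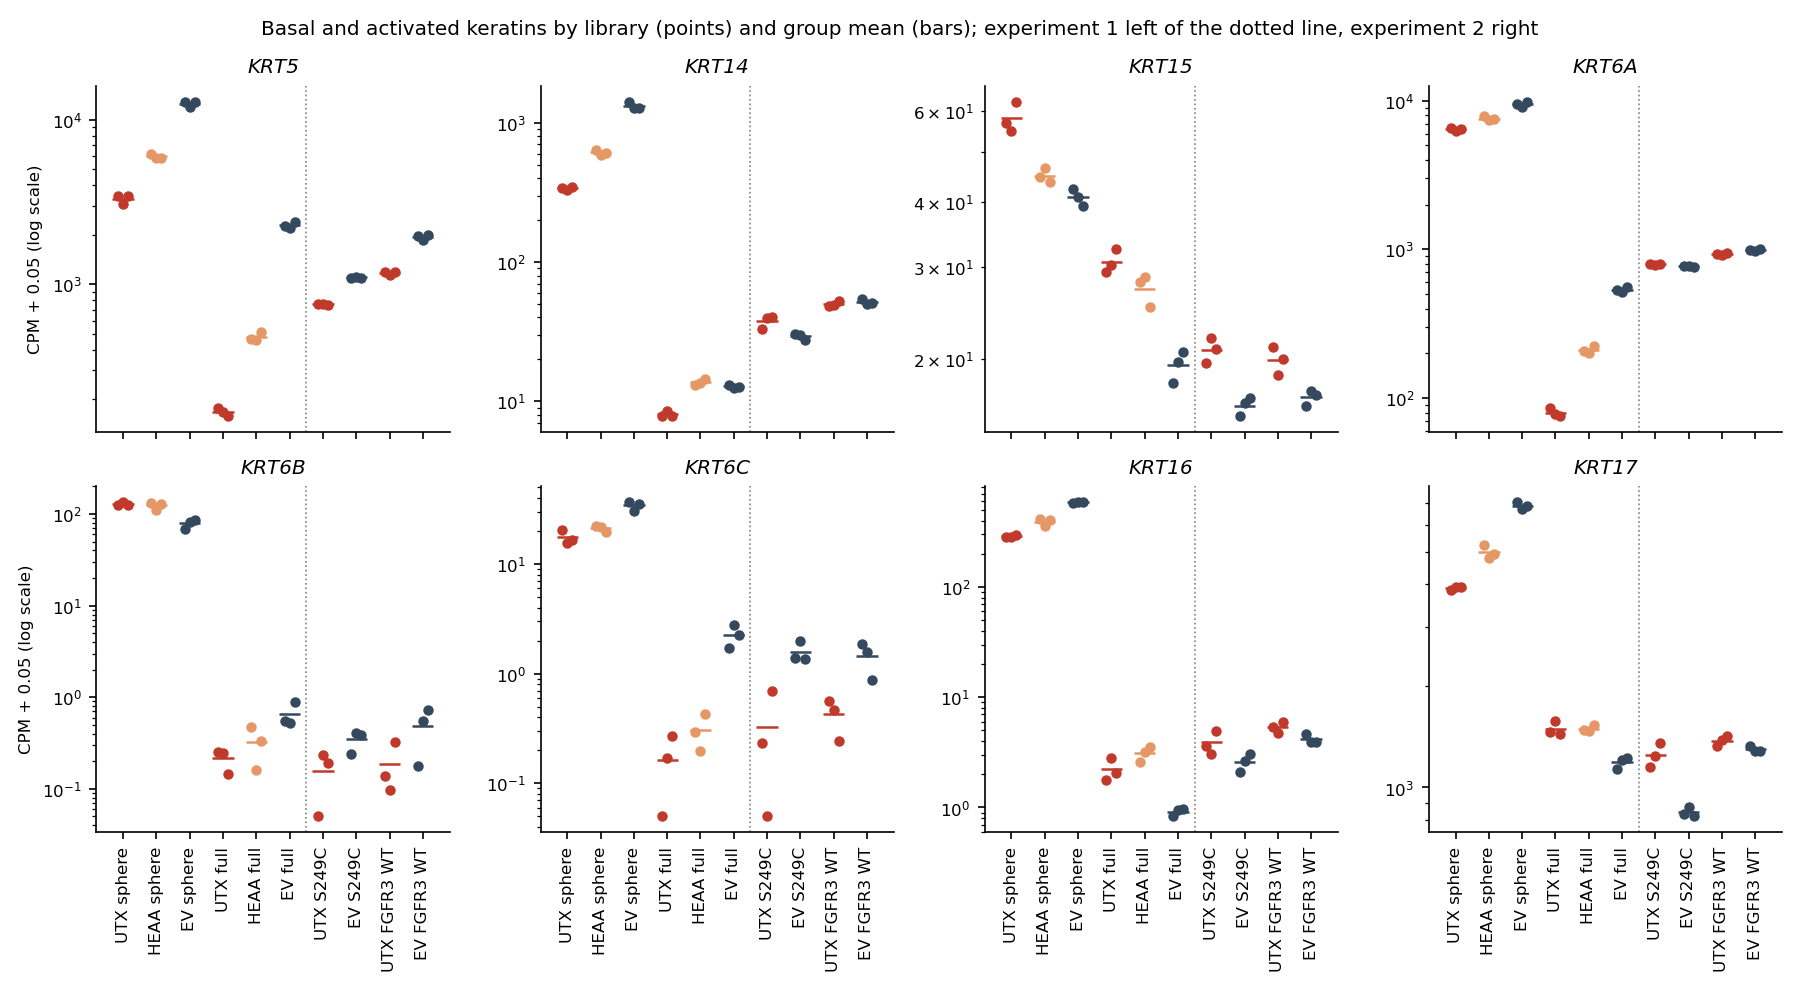
Level of each keratin in every library (points, CPM + 0.05 on a log axis) with group means (bars), for UTX, HEAA and EV in sphere and full medium and, right of the dotted line, for UTX and EV with FGFR3 S249C or wild type FGFR3. All 8 keratins stood higher in every sphere library than in every full medium library, and KRT5 in full medium stood at 158 to 177 CPM in UTX libraries against 2204 to 2393 CPM in EV libraries.

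In full medium, UTX cells had far less KRT5 and KRT6A RNA than EV cells, and slightly more KRT17 and KRT15. KRT5 fell to 167 ± 9.37 CPM in UTX cells, against 2287 ± 96.5 CPM in EV cells (SD, n = 3 each), a 13.7-fold difference. HEAA cells lay between them at 479 ± 29.02 CPM. All 4 type II members (KRT5, KRT6A and the scarce KRT6B and KRT6C) were lower in UTX cells, while 3 of the 4 type I members were higher. In all, 3 members rose and 5 fell at an adjusted p under 0.05 (edgeR's quasi-likelihood test, Benjamini-Hochberg adjustment over all genes tested), where 57.7% of the 19629 genes tested passed, 28.4% higher and 29.2% lower. The median log2 fold change was -1.28 over the 8 members and 0.04 over all genes. Of the 5 that fell, KRT6B and KRT6C reached the level of the low-count filter in 3 of 3 EV but 0 of 3 UTX libraries. The sizes of their falls are therefore uncertain, and the median includes them.

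KRT5 was at 177, 167 and 158 CPM in UTX libraries, 463, 461 and 512 CPM in HEAA libraries and 2264, 2204 and 2393 CPM in EV libraries. The 3 groups were far apart and no 2 overlapped. The log2 fold change was -3.77 ± 0.05 (SE) for UTX over EV (edgeR adjusted p = 3.96e-22) and -2.26 ± 0.05 for HEAA over EV (edgeR adjusted p = 1.11e-18), 2 comparisons that share the EV libraries. UTX over HEAA was -1.52 ± 0.05 (edgeR adjusted p = 2.29e-14). KRT6A, the main KRT6 gene, followed the same order, with 85.3, 77.6 and 75.6 CPM in UTX, 208, 202 and 224 CPM in HEAA and 535, 515 and 558 CPM in EV libraries. Its log2 fold changes were -2.75 ± 0.05 for UTX over EV, -1.34 ± 0.04 for HEAA over EV and -1.41 ± 0.05 for UTX over HEAA, the last with an edgeR adjusted p of 2.29e-14.

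KRT6B and KRT6C were near the limit of detection in full medium. KRT6C had 0, 3 and 7 counts in UTX libraries, 7, 4 and 12 in HEAA libraries and 47, 94 and 89 in EV libraries, with a log2 fold change of -4.30 ± 0.43 for UTX over EV and -3.06 ± 0.36 for HEAA over EV. Without UTX replicate 1 the UTX value was -3.64, and without UTX replicate 3 it was -5.37. KRT6B had 7, 5 and 3 counts in UTX, 12, 3 and 9 in HEAA and 14, 16 and 34 in EV libraries. All 3 EV libraries, 1 of 3 HEAA libraries and 0 of 3 UTX libraries reached the level asked by the low-count filter, for KRT6B and for KRT6C. The KRT6B fall in UTX cells (-1.90 ± 0.56, edgeR adjusted p = 0.00598) was lost without EV replicate 3 (-1.54, edgeR adjusted p = 0.0551), and HEAA over EV did not pass (-1.16 ± 0.50, edgeR adjusted p = 0.0593). The HEAA value passed without the low-count filter (-1.19, edgeR adjusted p = 0.00149), by DESeq2 (-1.175, DESeq2 adjusted p = 0.00352), with only the compared groups in the fit (-1.16, edgeR adjusted p = 0.0271), and without any one of HEAA replicate 1, EV replicate 2, HEAA sphere replicate 2 or EV sphere replicate 1 (-1.17 to -1.61). With KRT6A, KRT6B and KRT6C summed, the log2 fold change was -2.755 for UTX over EV and -1.35 for HEAA over EV.

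The type I members moved less. KRT17, the most abundant of them, was at 1456, 1571 and 1436 CPM in UTX, 1478, 1469 and 1534 CPM in HEAA and 1137, 1206 and 1220.05 CPM in EV libraries. It rose by a log2 fold change of 0.32 ± 0.04 with UTX and 0.33 ± 0.04 with HEAA (edgeR adjusted p = 1.23e-07 and 1.6e-07), and UTX and HEAA libraries overlapped (-0.01 ± 0.04, edgeR adjusted p = 0.939). KRT15 was at 29.3, 30.2 and 32.5 CPM in UTX, 28.0, 28.6 and 25.1 CPM in HEAA and 17.9, 19.7 and 20.6 CPM in EV libraries, and rose by 0.66 ± 0.06 with UTX and 0.48 ± 0.06 with HEAA. Both vectors thus left KRT15 above every EV library.

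KRT14, the usual partner of KRT5, was low in full medium, with 7.85, 8.43 and 7.76 CPM in UTX, 13.1, 13.5 and 14.3 CPM in HEAA and 13.0, 12.5 and 12.7 CPM in EV libraries. It fell with UTX by a log2 fold change of -0.67 ± 0.07 (edgeR adjusted p = 1.54e-08), while HEAA over EV did not pass (0.10 ± 0.06, edgeR adjusted p = 0.188) except with total-count scaling (0.15, edgeR adjusted p = 0.0357), and UTX over HEAA was -0.77 ± 0.07 (edgeR adjusted p = 5.05e-08). KRT16 was scarce, at 1.71, 2.78 and 2.01 CPM in UTX, 2.54, 3.15 and 3.50 CPM in HEAA and 0.779, 0.909 and 0.918 CPM in EV libraries. It rose by 1.27 ± 0.19 with UTX and 1.81 ± 0.18 with HEAA. Over the 3 EV libraries the KRT16 pseudogenes held 303 counts, and with their counts added to KRT16 the rises were 0.54 and 0.71.

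HEAA over EV in full medium gave 3 members higher, 3 lower and 2 not past the threshold, where 48.5% of all genes passed, 23.2% higher and 25.3% lower. The 3 lower include KRT6C, which reached the level of the low-count filter in 1 of 3 HEAA libraries. UTX over HEAA in full medium gave 1 member higher and 4 lower, against 21.4% of all genes called, 8.95% higher and 12.4% lower. Besides KRT5, KRT6A and KRT14, the member that was lower was KRT16 (-0.54 ± 0.15, edgeR adjusted p = 0.0131), a call lost without UTX replicate 1 (-0.38), UTX replicate 3 (-0.50) or HEAA replicate 3 (-0.41), with only the compared groups in the fit, and with the pseudogene counts added (-0.17). The member that was higher was KRT15 (0.17 ± 0.06, edgeR adjusted p = 0.0493). That call was lost without UTX replicate 2 (0.19) or 3 (0.12), HEAA replicate 1 (0.21) or 3 (0.13), or any one of the EV sphere replicates (0.17 each). It was also lost under both other scalings, without the low-count filter, with the replicate number as a block, by DESeq2 and with only the compared groups in the fit.

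**Figure D2:**
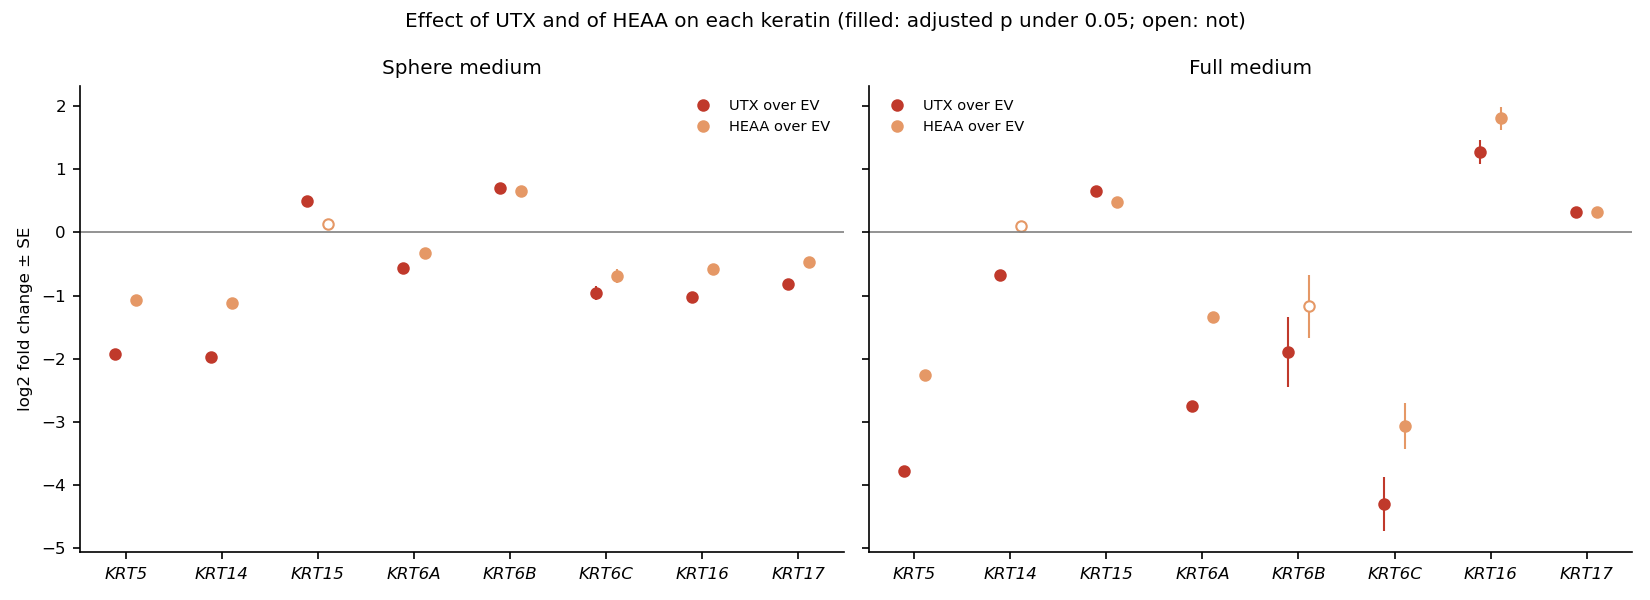
Log2 fold change (± SE) of each keratin for UTX over EV and HEAA over EV, in sphere medium and in full medium, with filled points for an adjusted p under 0.05. KRT5 and KRT6A fell in both media, while KRT16 and KRT17 were higher than EV in full medium and lower in sphere medium.

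In sphere medium, UTX lowered 6 of the 8 members, the KRT5 and KRT14 pair most. KRT5 was at 3428, 3085 and 3418 CPM in UTX libraries, 6221, 5887 and 5886 CPM in HEAA libraries and 12848, 11894 and 12809.5 CPM in EV libraries. KRT14 was at 339, 329 and 347 CPM in UTX, 643, 584 and 613 CPM in HEAA and 1419, 1280.0 and 1282 CPM in EV libraries. Both genes fell by nearly the same factor: the log2 fold change for UTX over EV was -1.92 ± 0.05 for KRT5 and -1.97 ± 0.04 for KRT14, and for HEAA over EV it was -1.06 ± 0.05 for KRT5 and -1.11 ± 0.04 for KRT14. UTX over HEAA was -0.86 for each gene, with SEs of 0.05 for KRT5 and 0.04 for KRT14 (edgeR adjusted p = 1.14e-10 and 2.37e-11).

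The activated type I chains fell as well in sphere medium. KRT16 was at 283, 284 and 296 CPM in UTX, 411, 359.8 and 404 CPM in HEAA and 581, 587 and 591 CPM in EV libraries, a log2 fold change of -1.03 ± 0.06 for UTX over EV and -0.58 ± 0.06 for HEAA over EV. KRT17 was at 3855, 3923 and 3941 CPM in UTX, 5229, 4791 and 4918 CPM in HEAA and 7028, 6703 and 6836 CPM in EV libraries, a log2 fold change of -0.81 ± 0.04 for UTX over EV and -0.46 ± 0.04 for HEAA over EV. For both genes UTX lay below HEAA and HEAA below EV, with no overlap between groups.

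Among the KRT6 genes, KRT6A was at 6518, 6246 and 6485 CPM in UTX, 7862, 7375 and 7501 CPM in HEAA and 9497, 9093 and 9843 CPM in EV libraries. It fell by a smaller factor than in full medium, with a log2 fold change of -0.56 ± 0.04 for UTX over EV and -0.32 ± 0.04 for HEAA over EV. KRT6C was at 20.6, 15.7 and 16.5 CPM in UTX, 22.3, 21.9 and 19.7 CPM in HEAA and 36.8, 30.7 and 35.6 CPM in EV libraries (-0.96 ± 0.11 for UTX over EV). KRT6B went the other way, at 126, 135 and 127 CPM in UTX, 132, 109.7 and 130.1 CPM in HEAA and 69.2, 80.9 and 86.9 CPM in EV libraries, a rise of 0.71 ± 0.08 with UTX and 0.65 ± 0.07 with HEAA (edgeR adjusted p = 6.32e-08 and 2.67e-07). UTX and HEAA libraries overlapped for both KRT6B and KRT6C, and UTX over HEAA passed for neither (0.06 ± 0.07 and -0.28 ± 0.12, edgeR adjusted p = 0.67 and 0.105), although KRT6C passed without UTX replicate 1 (-0.43) and without the low-count filter (-0.28, edgeR adjusted p = 0.0034). KRT6B held 1.97 ± 0.13% of all KRT6 counts in UTX, 1.60 ± 0.13% in HEAA and 0.824 ± 0.089% in EV sphere libraries (SD, n = 3 each), so its value rests on how these near-identical transcripts were told apart, and the 3 genes summed fell, with log2 fold changes of -0.55 with UTX and -0.31 with HEAA.

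KRT15 was the one other member that rose with UTX in sphere medium, with 56.7, 54.8 and 62.3 CPM in UTX, 44.6, 46.5 and 43.6 CPM in HEAA and 42.4, 40.8 and 39.3 CPM in EV libraries. The log2 fold change was 0.50 ± 0.06 for UTX over EV (edgeR adjusted p = 1.58e-07) and 0.37 ± 0.06 for UTX over HEAA (edgeR adjusted p = 8.96e-05), while HEAA over EV did not pass (0.14 ± 0.06, edgeR adjusted p = 0.0633) with all libraries and passed when any one of 10 of the 18 libraries was left out, with either other scaling, without the low-count filter and with only the compared groups in the fit (0.15 to 0.23). Without EV sphere replicate 2, no keratin call of UTX or HEAA over EV in sphere medium changed. By count, UTX over EV gave 2 members higher and 6 lower against 48.4% of all genes called, 22.8% higher and 25.6% lower. HEAA over EV gave 1 higher and 6 lower against 41.4%, with 19.9% higher and 21.5% lower. UTX over HEAA gave 1 higher and 5 lower against 20%, with 8.87% higher and 11.2% lower.

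Sphere medium raised all 8 keratins in all 3 kinds of cell, where 35.1% of all genes rose and 35.4% fell in UTX cells (70.5% in all), 34.4% and 36.3% in HEAA cells (70.8%), and 33.1% and 32.4% in EV cells (65.5%). The median log2 fold change over the members was 5.87 in UTX, 5.33 in HEAA and 4.04 in EV cells, against -0.06, -0.07 and -0.03 over all genes. KRT16 and KRT14 were scarce in full medium and abundant in sphere medium. KRT16 was at 581 to 591 CPM in EV cells in sphere medium and 0.779 to 0.918 CPM in full medium, a log2 fold change of 9.38 ± 0.10 (edgeR adjusted p = 5.11e-25), which is 7.28 with the pseudogene counts added. KRT14 was at 1280.0 to 1419 CPM in EV cells in sphere medium and 12.5 to 13.0 CPM in full medium (6.70 ± 0.06).

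The other members rose by smaller factors in EV cells, except KRT6B. The log2 fold change of sphere over full medium in EV cells was 4.14 ± 0.05 for KRT6A, 3.94 ± 0.15 for KRT6C, 2.53 ± 0.04 for KRT17, 2.45 ± 0.05 for KRT5 and 1.07 ± 0.06 for KRT15, and 6.98 ± 0.15 for KRT6B, whose EV full medium libraries held 14 to 34 counts. In UTX and HEAA cells the full medium libraries of KRT6B and KRT6C held 0 to 12 counts, most of them under the level of the low-count filter, so the sizes of these 2 rises are uncertain. In UTX cells the rises of KRT5 (4.31 ± 0.06) and KRT6A (6.33 ± 0.06) were larger on this scale, and those of KRT14 (5.40 ± 0.06), KRT16 (7.08 ± 0.09) and KRT17 (1.39 ± 0.04) smaller. HEAA cells gave 3.65 ± 0.05 for KRT5, 5.17 ± 0.05 for KRT6A, 5.49 ± 0.06 for KRT14, 6.99 ± 0.09 for KRT16 and 1.74 ± 0.04 for KRT17. The EV-cell and UTX-cell comparisons share no library.

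The effect of UTX differed between media for 7 of the 8 members by the interaction test, where 37.3% of all genes passed, 21.1% with a positive and 16.2% with a negative difference. The difference, the effect in sphere medium minus that in full medium, was positive for the type II members: 1.85 ± 0.07 for KRT5, 2.19 ± 0.06 for KRT6A, 2.61 ± 0.55 for KRT6B and 3.34 ± 0.49 for KRT6C. It was negative for 3 type I members: -1.30 ± 0.08 for KRT14, -2.30 ± 0.20 for KRT16 and -1.14 ± 0.05 for KRT17, and KRT15 did not pass (-0.15 ± 0.08, edgeR adjusted p = 0.181). KRT16 and KRT17 changed direction, higher than EV in full medium and lower in sphere medium. For HEAA all 8 members passed, against 33% of all genes (18.7% positive, 14.3% negative), and again the type II members were positive and the type I members negative: 1.195 ± 0.07 for KRT5, 1.02 ± 0.06 for KRT6A, 1.82 ± 0.50 for KRT6B and 2.38 ± 0.40 for KRT6C, and -1.21 ± 0.08 for KRT14, -0.35 ± 0.09 for KRT15, -2.39 ± 0.18 for KRT16 and -0.79 ± 0.05 for KRT17. Without EV full replicate 3 the KRT6B value for HEAA did not pass (1.48, edgeR adjusted p = 0.0701). The KRT6C value for UTX was 2.67 without UTX full replicate 1 and 4.40 without UTX full replicate 3, and with pseudogene counts added KRT16 gave -1.57 for UTX and -1.29 for HEAA.

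Because a filament needs both chain types, the balance of type II to type I transcripts was described per kilobase of coding sequence. In full medium the type II members summed to 142 ± 8.20 CPM per coding kb in UTX, 395 ± 23.1 in HEAA and 1610.5 ± 66.9 in EV cells (SD, n = 3 each), while the type I members summed to 1177 ± 56.3 in UTX, 1184 ± 26.3 in HEAA and 940.2 ± 35.0 in EV cells. Their ratio was 0.121 ± 0.009 in UTX, 0.334 ± 0.012 in HEAA and 1.71 ± 0.08 in EV cells. In sphere medium the ratio was 1.64 ± 0.06 in UTX, 1.74 ± 0.03 in HEAA and 1.91 ± 0.06 in EV cells, with no overlap between UTX and EV libraries in either medium. These ratios were not tested.

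Over all 35 keratins summed in the first table the imbalance was milder. The type II to type I ratio was 0.519 ± 0.010 in UTX, 0.549 ± 0.004 in HEAA and 0.726 ± 0.008 in EV cells in full medium. Other type II keratins made up the rest: KRT8, a keratin of simple epithelium, held 59.3% of type II transcripts per coding kb in UTX and 32.2% in EV cells in full medium, and KRT80 held 30.8% in UTX and 13.5% in EV cells. KRT8 itself was at 1579 ± 53.6 CPM in UTX and 1464 ± 20.1 CPM in EV cells, a log2 fold change of 0.11 ± 0.04. KRT5 held 5.15 ± 0.23% of type II transcripts in UTX and 41.1 ± 0.72% in EV cells. In sphere medium KRT5 and KRT6A were the main type II keratins in every group, with KRT8 at 12.3% in UTX, 6.41% in HEAA and 3.72% in EV cells. KRT6A exceeded KRT5 per coding kb in UTX cells (ratio of KRT5 to KRT6A 0.493 ± 0.018) and HEAA cells (0.757 ± 0.006) but not in EV cells (1.26 ± 0.03).

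KRT5 exceeded its partner KRT14 in every group. The ratio of KRT5 to KRT14 per coding kb was 16.7 ± 1.16 in UTX, 28.0 ± 0.72 in HEAA and 144 ± 6.22 in EV cells in full medium. In sphere medium it was 7.82 ± 0.29 in UTX, 7.83 ± 0.20 in HEAA and 7.56 ± 0.39 in EV cells, with overlapping libraries in all 3 groups, although the levels of both genes differed between them. Among all members, EV cells in full medium held KRT5 (1292 CPM per coding kb), KRT17 (916) and KRT6A (317) as the abundant transcripts, with KRT15 at 14.2 and KRT14 at 9.00. In sphere medium EV cells held KRT5 (7072), KRT6A (5601) and KRT17 (5289.8), then KRT14 (937) and KRT16 (413), with KRT6B at 46.7, KRT15 at 29.8 and KRT6C at 20.3.

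**Figure D3:**
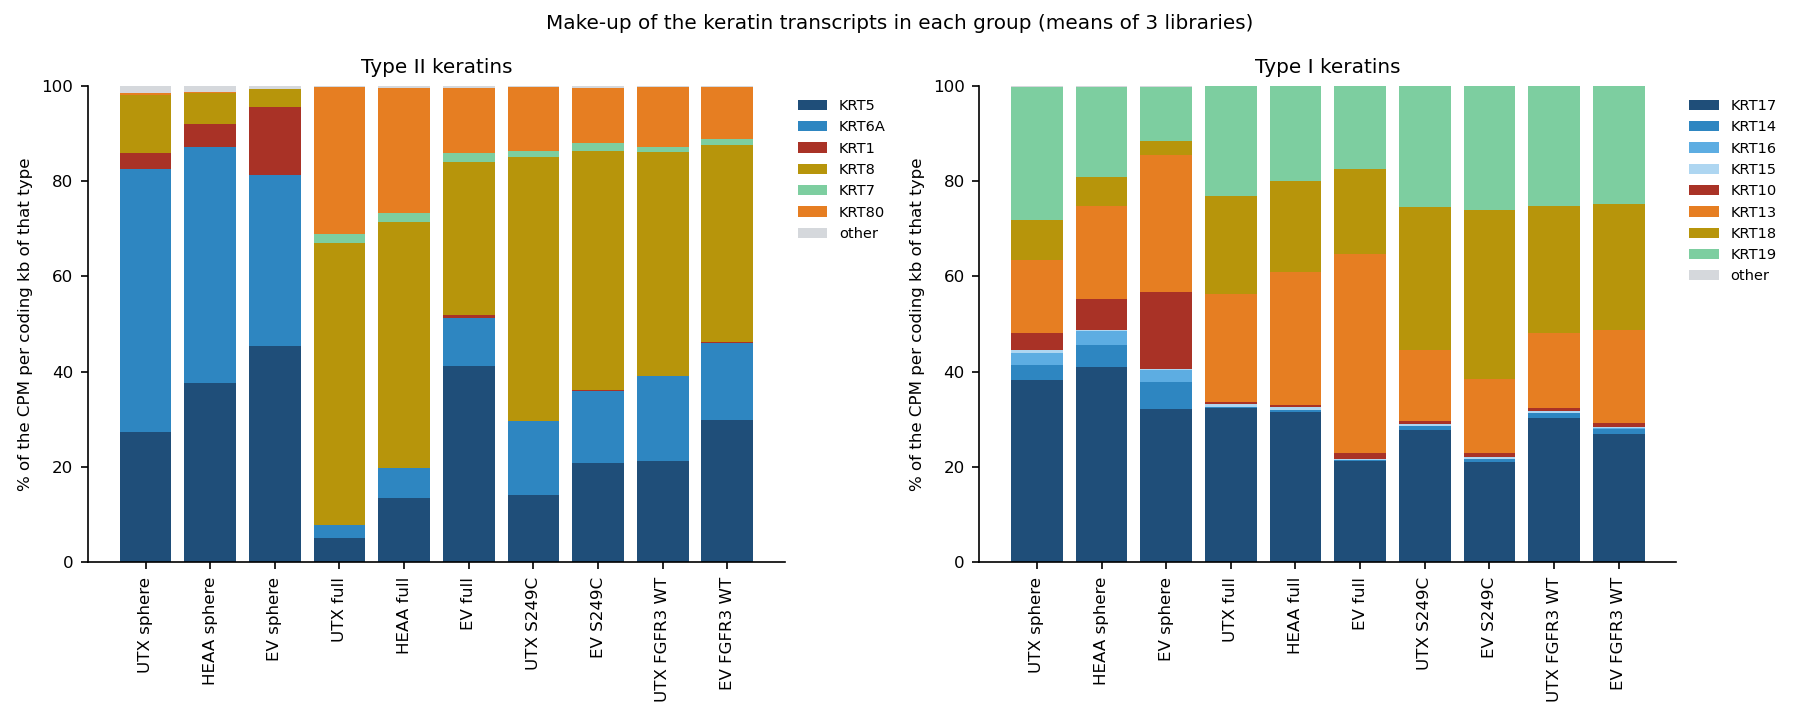
Make-up of the type II (left) and type I (right) keratin transcripts in each group, as a percent of the CPM per coding kb of that type (means of 3 libraries). KRT5 held 5.15% of type II transcripts in UTX cells and 41.1% in EV cells in full medium, and KRT8 held 59.3% in UTX and 32.2% in EV cells, while KRT5 and KRT6A dominated type II transcripts in every sphere group.

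Over the groups of the first experiment the order of levels was EV sphere, HEAA sphere, UTX sphere, EV full, HEAA full and UTX full, from high to low, for KRT5, KRT6A and KRT6C. KRT15 ran UTX, HEAA, EV within each medium. Neighbours that did not differ beyond their ranges were UTX and HEAA sphere for KRT6B and KRT6C, and UTX and HEAA full for KRT6B, KRT6C, KRT16 and KRT17. KRT14 in HEAA full libraries lay just above EV full libraries. KRT16 and KRT17 ran EV, HEAA, UTX in sphere medium and HEAA, UTX, EV in full medium.

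In the second experiment, all in full medium, the effect of UTX on KRT5 was again a fall, of a smaller size, and KRT6A did not pass in edgeR's test. KRT5 was at 759.8, 762 and 752 CPM in UTX and 1099.99, 1114 and 1090.09 CPM in EV cells with S249C, and at 1185, 1137 and 1182 CPM in UTX and 1967, 1847 and 1985 CPM in EV cells with wild type FGFR3. The 4 groups did not overlap. The log2 fold change for UTX over EV was -0.54 ± 0.04 with S249C (edgeR adjusted p = 2.59e-07) and -0.73 ± 0.04 with wild type FGFR3 (edgeR adjusted p = 1.65e-08), and the 2 did not differ past the threshold (0.19 ± 0.06, edgeR adjusted p = 0.218) except by DESeq2 (0.19, DESeq2 adjusted p = 0.0247). Beside the -3.77 of the first experiment these are small changes. Vectors, library kit and supplied FGFR3 all differed between the experiments, which were fitted apart, so that gap was not tested and its sources cannot be told apart. Across the separately normalized tables FGFR3 was at 1227 to 1377 CPM in EV cells with wild type FGFR3 and at 138 to 151 CPM in EV full medium cells.

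KRT6A was at 794, 791 and 798 CPM in UTX and 777, 771 and 759 CPM in EV cells with S249C, and at 934, 924 and 948 CPM in UTX and 997, 969.5 and 1009.6 CPM in EV cells with wild type FGFR3. UTX over EV was 0.05 ± 0.04 with S249C and -0.08 ± 0.04 with wild type FGFR3, neither past the threshold (edgeR adjusted p = 0.42 and 0.147), while DESeq2 called the value with wild type FGFR3 (-0.091, DESeq2 adjusted p = 0.0154). KRT6C had 5, 0 and 18 counts in UTX and 35, 49 and 35 in EV cells with S249C, and 12, 9 and 5 in UTX and 42, 40 and 21 in EV cells with wild type FGFR3. All 6 EV libraries but 3 of 6 UTX libraries reached the level of the low-count filter, so that KRT6C entered mainly through the groups where it was high. Its log2 fold change for UTX over EV, given as a description without a call, was -2.44 with S249C (-3.998 without UTX replicate 3) and -1.88 with wild type FGFR3, and the 3 KRT6 genes summed gave 0.044 with S249C and -0.087 with wild type FGFR3. KRT6B had 0 to 17 counts per library and did not enter the test.

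KRT17 rose with UTX beside S249C, and the effect of UTX on it differed between the FGFR3 forms. It was at 1151, 1243 and 1351 CPM in UTX and 833, 878 and 821 CPM in EV cells with S249C, and at 1327, 1379 and 1419 CPM in UTX and 1328, 1287 and 1281 CPM in EV cells with wild type FGFR3. EV cells with S249C stood below the 3 other groups, which overlapped. The log2 fold change for UTX over EV was 0.56 ± 0.05 with S249C (edgeR adjusted p = 2.98e-06) and 0.08 ± 0.05 with wild type FGFR3 (edgeR adjusted p = 0.365). Without UTX S249C replicate 3, which held the highest KRT17 of its group, the value with S249C was 0.50. The difference between these effects was 0.48 ± 0.08 (edgeR adjusted p = 0.00888), or 0.42 without that library, where it also passed. KRT17 was the one member of 7 to pass, where 0.686% of all genes did (0.572% positive, 0.113% negative).

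KRT14 was at 33.2, 39.7 and 40.2 CPM in UTX and 30.5, 29.8 and 27.6 CPM in EV cells with S249C, and at 48.2, 49.1 and 52.8 CPM in UTX and 54.2, 49.7 and 50.8 CPM in EV cells with wild type FGFR3. It rose with UTX in S249C cells (0.36 ± 0.07, edgeR adjusted p = 0.00215), and with wild type FGFR3 the groups overlapped (-0.04 ± 0.07, edgeR adjusted p = 0.771). The difference between these effects did not pass (0.40 ± 0.10, edgeR adjusted p = 0.0975), except without UTX S249C replicate 1 (0.49, edgeR adjusted p = 0.0221) and by DESeq2 (0.41, DESeq2 adjusted p = 0.0365). KRT15 was at 19.6, 21.8 and 20.8 CPM in UTX and 15.5, 16.4 and 16.7 CPM in EV cells with S249C, and at 20.97, 18.6 and 19.9 CPM in UTX and 16.2, 17.3 and 16.95 CPM in EV cells with wild type FGFR3. As in the first experiment KRT15 was higher with UTX, by 0.36 ± 0.06 with S249C (edgeR adjusted p = 0.000947) and 0.24 ± 0.07 with wild type FGFR3 (edgeR adjusted p = 0.0218). The second value lost its call without EV replicate 1 (0.21) or 3 (0.24) or UTX replicate 1 (0.20) or 3 (0.24), and by DESeq2 (0.23, DESeq2 adjusted p = 0.0558).

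KRT16 was at 3.60, 3.02 and 4.92 CPM in UTX and 2.06, 2.62 and 2.99 CPM in EV cells with S249C, and at 5.32, 4.71 and 5.93 CPM in UTX and 4.57, 3.90 and 3.90 CPM in EV cells with wild type FGFR3. UTX over EV was 0.59 ± 0.18 with S249C (edgeR adjusted p = 0.031), lost without EV replicate 1 (0.46) or 2 (0.61) or UTX replicate 3 (0.37) or with only the compared groups in the fit (0.60, edgeR adjusted p = 0.0773). With wild type FGFR3 it was 0.37 ± 0.17 (edgeR adjusted p = 0.175), which passed with only the compared groups in the fit (0.37, edgeR adjusted p = 0.048). With pseudogene counts added KRT16 gave 0.64 with S249C (edgeR adjusted p = 0.00453) and 0.38 with wild type FGFR3 (edgeR adjusted p = 0.0729). By count over the 6 members other than KRT6B and KRT6C, UTX over EV gave 4 higher and 1 lower with S249C, where 21.5% of all genes passed (12.9% higher, 8.62% lower), and 1 higher and 1 lower with wild type FGFR3, where 15.1% did (9.06% higher, 6.01% lower).

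FGFR3 S249C went with lower levels of most tested members in EV cells, and of fewer in UTX cells, than wild type FGFR3. In EV cells 5 of the 7 tested members were lower and the other 2 did not pass, where 6.45% of all genes were lower, 4.31% higher and 10.8% called in either direction. The log2 fold change was -0.81 ± 0.04 for KRT5, -0.81 ± 0.07 for KRT14, -0.62 ± 0.05 for KRT17 and -0.37 ± 0.04 for KRT6A (edgeR adjusted p = 4.74e-08, 6.57e-06, 6.4e-06 and 1.85e-05). KRT16 also passed (-0.69 ± 0.18, edgeR adjusted p = 0.0258) but lost its call without any one EV wild type FGFR3 replicate (-0.61 to -0.73) or without EV S249C replicate 1 (-0.55) or 2 (-0.71). With pseudogene counts added KRT16 gave -0.60 (edgeR adjusted p = 0.016). KRT15 did not pass (-0.05 ± 0.07, edgeR adjusted p = 0.665). In UTX cells 3 members were lower, where 3.05% of all genes passed (1.34% lower, 1.71% higher): KRT5 by -0.62 ± 0.04, KRT14 by -0.41 ± 0.07 and KRT6A by -0.24 ± 0.04 (edgeR adjusted p = 7.98e-07, 0.00407 and 0.00196). Without UTX S249C replicate 3, KRT16 (-0.68) and KRT17 (-0.20) passed as well. Same-numbered libraries of these 2 groups deviated together, and with the replicate number as a block in the UTX groups the same 3 members passed, with KRT16 at -0.48 ± 0.14 and KRT17 at -0.14 ± 0.04 (edgeR adjusted p = 0.0816 and 0.105). KRT16 and KRT17 were lower with S249C in each of the 3 same-numbered pairs, which is a description only, since the pairing was taken from these data. The S249C groups also held 1.79-fold (EV) and 2.08-fold (UTX) more FGFR3 RNA than the wild type FGFR3 groups, so the change in the receptor and its amount cannot be told apart.

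**Figure D4:**
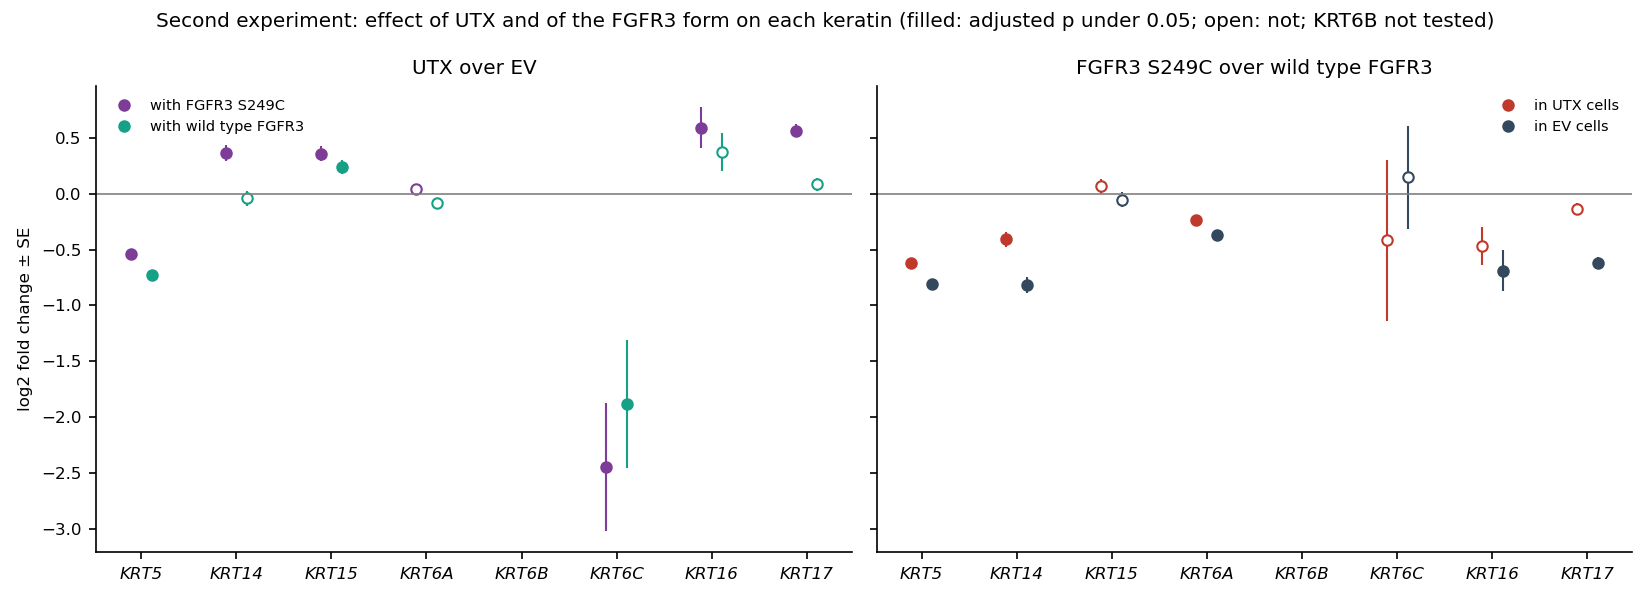
Second experiment: log2 fold change (± SE) of each keratin for UTX over EV with each FGFR3 (left) and for S249C over wild type FGFR3 in UTX and EV cells (right), with filled points for an adjusted p under 0.05. KRT6C, with few counts in UTX libraries, is drawn as fitted, and a filled point for it is not taken as a call. KRT5 fell with UTX under both FGFR3 forms, and KRT17 rose by 0.56 with S249C against 0.08 with wild type FGFR3.

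The per-length balance of the members in the second experiment ran the same way as in the first but less far. The type II to type I ratio of the members was 0.895 ± 0.073 in UTX and 1.57 ± 0.04 in EV cells with S249C, and 1.09 ± 0.04 in UTX and 1.59 ± 0.05 in EV cells with wild type FGFR3. The ratio of KRT5 to KRT14 was 16.2 ± 1.84 in UTX and 30.1 ± 1.40 in EV cells with S249C, and 18.7 ± 0.88 in UTX and 30.01 ± 1.15 in EV cells with wild type FGFR3. UTX and EV libraries did not overlap in either ratio. Neighbours in the order of levels that overlapped were UTX and EV cells with wild type FGFR3 for KRT14 and KRT17, and the S249C and wild type FGFR3 groups, within UTX or EV cells, for KRT15 and KRT6C. UTX cells with S249C and EV cells with wild type FGFR3 overlapped for KRT16 and KRT17, and every pair of neighbours did for KRT6B.

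Most other keratins measured, a list that mixes those of stratified and simple epithelium and of hair, were lower with UTX in full medium. Of 23 tested, 2 rose and 16 fell, with a median log2 fold change of -2.26, where 28.4% of all genes rose and 29.2% fell with a median of 0.04. Some were scarce in full medium and entered through their sphere libraries, such as KRT73 and KRT79 (0.00145% and 0.00131% of type II transcripts per coding kb in EV cells). The count and median therefore do not stand for the most abundant of these keratins. Among those KRT13 fell, KRT8 and KRT80 did not fall, and KRT18 and KRT19 did not pass. KRT1 and KRT10, the pair of the suprabasal epidermis, fell in UTX cells to 0.0975 ± 0.0248 and 27.6 ± 1.53 CPM, against 46.8 ± 2.56 and 93.9 ± 3.92 CPM in EV cells, and KRT13, of mucosal epithelium, to 1102 ± 24.5 CPM in UTX cells, against 2490 ± 50.3 CPM in EV cells (edgeR adjusted p = 3.76e-18, 1.33e-14 and 4.54e-17). In sphere medium 9 rose and 10 fell with UTX (median -0.61), where 22.8% of all genes rose and 25.6% fell, with KRT1 at 423 ± 17.5 CPM in UTX and 4300 ± 374 CPM in EV cells. Sphere over full medium in EV cells raised 16 and lowered 7 of them (33.1% and 32.4% of all genes), KRT80 and KRT7 among those that fell (-6.58 ± 0.05 and -5.58 ± 0.07). The count raised is partly set by the low-count filter, which keratins scarce in full medium passed through their sphere libraries. In the second experiment 2 of 15 rose and 6 fell with UTX beside S249C (12.9% and 8.62% of all genes), and beside wild type FGFR3, where 9.06% of all genes rose and 6.01% fell, 8 of 15 fell and the others did not pass. These shares of all genes stand behind the counts of the next 4 lists too. In the second experiment keratins scarce in UTX cells could pass the low-count filter through their EV libraries alone. The counts of other keratins that fell there may therefore be partly set by the filter. KRT18 and KRT19, of simple epithelium, did not pass with UTX in full medium in the first experiment (-0.07 ± 0.04 and 0.11 ± 0.05, edgeR adjusted p = 0.145 and 0.0507).

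Keratinocyte activation genes, a list of alarmins, cytokines and envelope genes that accompany KRT6 and KRT16 in inflamed skin, mostly fell in full medium. KRT6A also fell there with UTX, while KRT16 and KRT17 rose. Of 20 tested, 1 rose and 14 fell with UTX (median -2.05), with S100A9, a calcium-binding alarmin, at 5.54 ± 0.87 CPM in UTX and 329 ± 6.57 CPM in EV cells. Some were scarce in full medium, such as SPRR1B (0.919 CPM in EV cells). Others were nearly absent from UTX cells, such as PI3 (0.0194 CPM in UTX, 6.63 CPM in EV) and S100A8 (0.0854 CPM in UTX, 20.5 CPM in EV). The median therefore rests partly on such genes. In sphere medium 12 rose and 4 fell with UTX (median 0.37), while KRT6A, KRT16 and KRT17 fell and KRT6B rose. IL1B, a cytokine, rose to 117 ± 3.92 CPM in UTX, against 55.7 ± 4.20 CPM in EV cells, and IVL, the envelope protein involucrin, to 254 ± 9.90 CPM in UTX, against 116 ± 12.9 CPM in EV cells (edgeR adjusted p = 1.04e-13 and 5.52e-13). Sphere over full medium in EV cells raised 19 of 20 and lowered 1, with SPRR1B and S100A8 among those raised (8.74 ± 0.11 and 5.01 ± 0.07). Genes scarce in full medium could pass the low-count filter through their sphere libraries alone, so this count may be partly set by the filter. Of the 22 genes listed, 20 were tested here and 14 in the second experiment, which was all in full medium. In the second experiment 5 rose and 5 fell of 14 with UTX beside either FGFR3.

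Basal layer genes outside the keratins did not follow KRT5 in full medium. Of 16, 11 rose and 3 fell with UTX (median 0.74, against 0.04 over all genes). LAMA3, a chain of the basement membrane laminin, was at 581 ± 16.6 CPM in UTX and 202 ± 3.78 CPM in EV cells, COL17A1, a hemidesmosome collagen, at 999 ± 44.5 CPM in UTX and 474 ± 9.24 CPM in EV cells, and CD44, a hyaluronan receptor, at 709 ± 20.5 CPM in UTX and 330 ± 5.88 CPM in EV cells (edgeR adjusted p = 3.03e-14, 1.15e-13 and 1.65e-17). The 3 that fell were the desmosomal DSC3 (-2.21 ± 0.05) and PKP1 (-1.28 ± 0.08) and the transcription factor gene TP63 (-0.42 ± 0.04). In sphere medium 8 rose and 5 fell with UTX (median 0.31). With UTX in the second experiment 9 of 16 rose beside S249C and 10 of 16 beside wild type FGFR3, where KRT5 fell, and the others did not pass. PKP1 rose there, by 1.77 ± 0.08 beside S249C and 1.76 ± 0.07 beside wild type FGFR3, opposite to its fall in full medium in the first experiment. Sphere over full medium in EV cells raised 12 and lowered 3.

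Keratin-bound cytolinkers and desmosome genes, which anchor the filaments, split evenly in full medium: 7 of 17 rose and 7 fell with UTX (median -0.09), plectin (PLEC) at 0.82 ± 0.05 and desmocollin 2 (DSC2) at -1.61 ± 0.06. In sphere medium 3 rose and 9 fell with UTX (median -0.15), and sphere over full medium in EV cells raised 12 and lowered 4, desmoplakin (DSP) by 3.11 ± 0.04. With UTX 9 of 17 rose beside S249C and 8 of 17 beside wild type FGFR3, and the others did not pass. PKP1, DSC3, DSG3 and DST stand in both this list and the basal list, and TP63 in the basal list and the next one, so the lists are not independent.

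Of 28 transcription factor genes known to act on these keratins, 11 rose and 12 fell with UTX in full medium (median 0.07; 28.4% of all genes rose and 29.2% fell) and 4 rose and 13 fell in sphere medium (median -0.17; 22.8% and 25.6% of all genes). TP63, the regulator of basal identity, was at 98.7 ± 3.47 CPM in UTX and 132 ± 5.32 CPM in EV cells in full medium, and at 230.0 ± 6.32 CPM in UTX and 387 ± 5.94 CPM in EV cells in sphere medium. GRHL3, a factor of epidermal differentiation, was at 2.19 ± 0.31 CPM in UTX and 20.4 ± 1.13 CPM in EV cells in full medium. Sphere over full medium in EV cells raised 18 and lowered 9, ZNF750 (4.77 ± 0.08), SOX15 (3.03 ± 0.06) and KLF5 (2.13 ± 0.04) among them. With UTX beside S249C 11 rose and 2 fell, and beside wild type FGFR3 7 rose and 8 fell. S249C over wild type FGFR3 in EV cells lowered 11 and raised 1 (6.45% and 4.31% of all genes).

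Genes whose levels ran most like a member were ranked among 10335 genes averaging at least 5 CPM in both experiments, by the lower of 2 Pearson correlations of log2(CPM + 1), over 18 and over 12 libraries. These libraries share their groups, so the values describe group patterns and carry no test. KRT5 was nearest to FGF7, a growth factor (0.96), LRIG3, a membrane protein with leucine-rich repeats (0.95), and GCLC, the catalytic subunit of glutathione synthesis (0.95). KRT6A was nearest to DSC3, a desmosomal cadherin (0.98), AQP3, a water and glycerol channel (0.97), and SLC7A8, an amino acid transporter (0.94). KRT14 was nearest to TIMM10B (0.92), SLC7A8 (0.92) and MED21 (0.92), KRT17 to AKR1C1 (0.96), SQLE (0.94) and MPP7 (0.93), and KRT15 to the collagen receptor gene DDR1 (0.96), AP2A1 (0.95) and PCDHGC3 (0.95). KRT6B, KRT6C and KRT16 averaged under 5 CPM in the second experiment and were not ranked.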

How the data were processed

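RNA from UMUC1 cells was sequenced in 2 experiments, with TruSeq libraries in the first and NEBNext Ultra II libraries in the second, per the labels' protocols. The authors deposited one table of estimated counts per gene for each experiment, as whole numbers. Salmon 0.8, DESeq2, hg19 and GRCh37 are named in the submitters' processing notes, while the step from transcripts to genes was not stated. The depth behind them was 23749352 to 40111234 and 21672408 to 28290664 counts per library.

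Each experiment was fitted apart with all its groups, as 1 mean per group, by the quasi-likelihood F test of edgeR 4.0.16 (limma 3.58.1, R 4.3.3) with TMM scaling after filterByExpr by group, which left 19629 and 19399 genes. Adjusted p-values are Benjamini-Hochberg over those genes, with a threshold of 0.05, and the SE is the log2 fold change divided by the square root of F. CPM are edgeR's, on the TMM-scaled library size, and levels were compared between genes only per kb of coding sequence. All 8 keratins were tested in the first experiment and 7 in the second, where KRT6B did not pass the filter. In the first experiment KRT6B and KRT6C passed through all their sphere and EV full libraries, and in the second KRT6C through all 6 EV and 3 of 6 UTX libraries. Positions come from GENCODE release 29 (GRCh38), which is not the authors' build.

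On counts simulated from the real means (UTX over EV, full medium, 18634 genes), 89.6% of genes changed 1.5-fold and 100% of those changed 2-fold were recovered. For UTX over EV beside wild type FGFR3 (18994 genes) these shares were 92.5% and 100%. The changed genes were drawn only from genes well counted in EV cells, and every gene was given the same spread. These shares therefore do not cover scarce genes, such as KRT6B and KRT16 in full medium of the first experiment. The spread fitted to the second experiment was wider than the simulated one. Same-numbered libraries correlated in their deviations from group means between -0.249 and 0.208 (45 pairs, 8 over 0.1) and between -0.314 and 0.506 (18 pairs, 6 over 0.1). In 1 pair of groups, UTX with S249C and UTX with wild type FGFR3, all 3 pairs were over 0.1 (0.106 to 0.506), and the numbers were taken to pair these libraries, from the data alone. They were not taken to pair other groups. The members, the gene lists and the tests were chosen with earlier results of these data known. Named list genes are up to 4 per list and comparison with the smallest adjusted p and at least 2 CPM, and others where a keratin is set beside them. Alternatives were RLE and total-count scaling, no filter, a replicate block, DESeq2 1.42.0, only the compared groups, KRT6 genes summed, pseudogene counts added, each library left out and, chosen after seeing the data, the replicate block in the UTX groups of the second experiment alone.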

Additional observations from a re-analysis of the deposited data

Results flagged for a closer look

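The effect of UTX differed between sphere and full medium for 7 of the 8 keratins by the interaction test (effect in sphere medium minus effect in full medium, log2). KRT5 (1.85), KRT6A (2.19), KRT6B (2.61) and KRT6C (3.34) were lowered less, or raised, in sphere medium. UTX full medium libraries held 0 to 7 counts of KRT6B and KRT6C, so the sizes of these values are uncertain. With a library left out KRT6C ranged from 2.67 to 4.40. The rise of KRT6B in sphere medium became a fall of -0.55 with the KRT6 genes summed. KRT14 (-1.30), KRT16 (-2.30) and KRT17 (-1.14) had a lower value in sphere medium.

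For HEAA all 8 keratins differed between media by the same test. The values were 1.195 for KRT5, 1.02 for KRT6A, 1.82 for KRT6B and 2.38 for KRT6C, and -1.21 for KRT14, -0.35 for KRT15, -2.39 for KRT16 and -0.79 for KRT17. HEAA full medium libraries held 3 to 12 counts of KRT6B and KRT6C, so the sizes of these values are uncertain too. With a library left out KRT6B ranged from 1.48 to 2.28. The UTX and HEAA values share the EV libraries.

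The effect of UTX on KRT17 differed between S249C and wild type FGFR3 by 0.48 (log2, effect beside S249C minus effect beside wild type FGFR3).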

How the results depend on the processing

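Of 811 values for single keratins under alternatives other than leaving out a library, 775 kept their direction and side of the threshold, 12 lost a call, 18 gained one and 6 reversed, and of 2004 with a library left out, 1939 kept both. The cause was not tested for any of the changes below unless stated. The count of keratins higher in HEAA over EV in sphere medium (1) was 2 with RLE or total-count scaling, without the filter and with only the compared groups, and the count higher in UTX over HEAA in full medium (1) was 0 under those 4 alternatives, the replicate block and DESeq2. Total-count scaling gave 2695 genes lower for HEAA over EV in sphere medium (4212 with TMM) and 72 higher for the UTX by FGFR3 interaction (111). The replicate block over all groups, most of which the numbers do not pair, gave 1 keratin lower for UTX over EV with wild type FGFR3 (2 without it, KRT6C counted here), and 66 genes higher and 14 lower for the UTX by FGFR3 interaction (111 and 22 without it). A block in the UTX groups alone, whose libraries were paired, changed no keratin call for S249C over wild type FGFR3, with 404 genes higher and 339 lower (332 and 259 without it). DESeq2 gave 0 keratins higher for UTX over EV with wild type FGFR3 (1 by edgeR) and 3 for the interaction (1 by edgeR). With only the compared groups, and so fewer libraries, 2 keratins were higher for UTX over EV with wild type FGFR3 and 966 genes lower for UTX over EV with S249C (1672). Summing the KRT6 genes, which by construction gives mostly KRT6A, reversed the KRT6B values in sphere medium to -0.55 for UTX over EV, -0.31 for HEAA over EV and -0.24 for UTX over HEAA. It reversed the KRT6C values to 0.044 for UTX over EV with S249C, -0.37 for S249C over wild type FGFR3 in EV cells and 0.13 for the interaction.

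With each library left out in turn, keratins higher ranged from 1 to 2 for HEAA over EV in sphere medium. For UTX over HEAA, KRT17 ranged from -0.045 to 0.024, genes lower from 1591 to 2457 and keratins higher from 0 to 1 in full medium, and KRT6B from -0.043 to 0.093 and genes higher from 998 to 1545 in sphere medium. For UTX over EV with wild type FGFR3, genes lower ranged from 758 to 1592, keratins higher from 0 to 1 and keratins lower from 1 to 2, and with S249C genes lower ranged from 1077 to 1915. For S249C over wild type FGFR3, KRT6C ranged from -1.96 to 0.16, genes higher from 172 to 403, genes lower from 119 to 303 and keratins lower from 3 to 5 in UTX cells, and KRT6C from -0.12 to 0.37, genes higher from 402 to 1209 and genes lower from 722 to 1664 in EV cells. For the UTX by FGFR3 interaction KRT6C ranged from -2.11 to 0.011, genes higher from 50 to 193, genes lower from 8 to 55 and keratins higher from 1 to 2. Depth limits KRT6B, KRT6C and KRT16 in full medium, where a library held as few as 0 counts of KRT6C.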
